A study of Mus musculus with 24 samples.

Results

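Liver RNA of GCN2 knockout mice (KO) was compared with that of wild-type mice (WT) when both had eaten a diet without leucine (LeuD) and were killed at circadian time 15 (CT15). The comparison takes 6 of the 24 libraries of the study, 3 KO and 3 WT, chosen by their labels for genotype, diet and time. Across all 24, the study crossed whole-body loss of GCN2 with a control diet (Control) or LeuD and with CT03 or CT15, in 8 groups of 3 mice. All 6 mice were housed singly and ate the control diet for 2 days. They then went over to LeuD at the onset of the dark phase of a 12-h cycle, entered constant darkness 24 h after that change and stayed in it for 8 days. The labels give no strain, sex or age, nor which stretch of Eif2ak4 was removed. The deletion is whole-body, so it is not limited to hepatocytes. A total of 14492 genes had reads in both the KO and the WT table of LeuD mice and were tested.

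GCN2, the product of Eif2ak4, is a kinase that senses amino acid shortage through uncharged transfer RNA. It phosphorylates the translation initiation factor eIF2, which lowers general protein synthesis and raises translation of the transcription factor ATF4, and ATF4 turns on genes of amino acid synthesis and transport. This pathway is the integrated stress response. In liver, dietary loss of an essential amino acid is a classic trigger of it, and other eIF2 kinases (PERK, PKR and HRI) can feed the same step.

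Reads in listed genes numbered 38908196 to 44226118 in the 6 libraries (34137121 to 44884200 over all 24). Reads of Eif2ak4, summed over the whole gene, gave normalized counts of 312, 343 and 320.5 in WT and 324, 297 and 294 in KO mice, so the 2 groups overlapped (log2 difference -0.09 ± 0.14 SE, adjusted p = 0.768 by limma). Over all 24 livers the gene lay between 287 and 349 in WT and between 243 and 462 in KO. A whole-gene count checks no loss of an exon, and the genotype labels are therefore not checked by this gene. Hepatocyte markers, summed and scaled to library size (RPM), were at 129300 to 151900 in WT and at 170300 to 193000 in KO. Most of that sum was albumin, which took 8.80% to 10.9% of reads in WT and 13.4% to 15.3% in KO. Of the 10 markers 6 had a positive and 4 a negative difference, with a median log2 difference of 0.115 and 0 called. Pancreas acinar markers stood apart in 2 of the 6 libraries, KO replicate 3 at 8829 RPM and WT replicate 1 at 4762 RPM, against 35.5 to 77.4 RPM in the other 4. In bulk tissue, fewer cells of a type and less RNA per cell cannot be told apart. With 3 mice a group, p values measure the spread between these mice.

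At an adjusted p under 0.05 (limma on log2(normalized count + 1), Benjamini-Hochberg over all genes tested), 264 genes were called, or 1.82% of those tested. Of these 169 were higher in KO (1.17%) and 95 lower (0.656%), and 2664 of all genes reached an unadjusted p below that same value. The median difference over all genes was near 0, and scaling to total reads put it at -0.164 and turned the split to 83 higher and 170 lower. The count depended on which mouse was left out and ranged from 25 to 328. It was 25 without WT replicate 2, 47 without KO replicate 3, 49 without WT replicate 1 and 51 without WT replicate 3. It was 24 without the 2 libraries rich in acinar transcripts. Values below are normalized counts, and differences are KO minus WT on the log2 scale ± SE. Of 35 pathway lists, interferon-stimulated genes had the highest median difference and major urinary proteins the lowest.

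**Figure D1:**
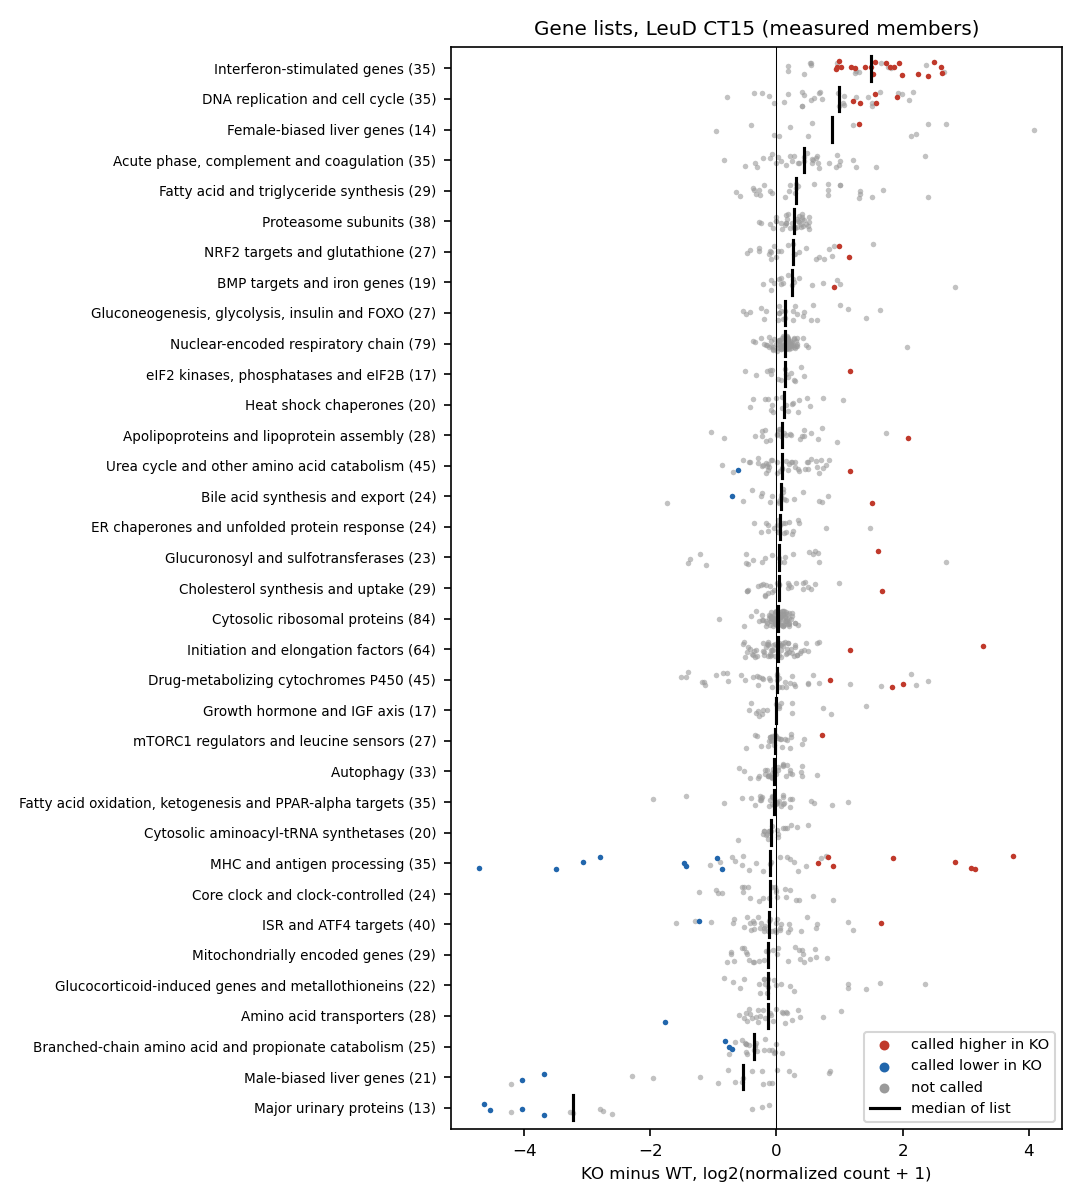
Each point is 1 gene of a list, placed by its KO minus WT difference on the log2(normalized count + 1) scale at LeuD CT15, with lists ordered by their median (black line) and the number of measured members in brackets. Red and blue points were called at an adjusted p under 0.05: 20 of 35 interferon-stimulated genes lie to the right, 4 of 13 major urinary protein genes to the left, and MHC genes on both sides.

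Interferon-stimulated genes were higher in KO livers. Interferons are antiviral signals that act through a complex of factors that includes STAT2 and IRF9 and binds an element in the promoters of its targets. All 35 measured genes of the list had a positive difference, with a median of 1.49. Of the 35, 20 were called higher (57.1% against 1.17% of all genes) and 0 lower. In 28 of the 35 the 3 KO mice lay above the 3 WT mice, against 12.1% of all genes tested. The same promoter element recurred in them. The core of that element, GAAA followed after any 2 bases by GAAA again, was searched on both strands from 250 bases before to 50 bases after each start in the RefSeq promoter table (build GRCm38.p6). It was found in 9 of the 15 called list genes that the table holds, and in 17 of the 25 list genes there, called or not. Of the 10697 tested genes with a promoter there, 3.95% had it. The match therefore marks the list and does not set its called genes apart from the rest of it. Among the called list genes, no match was found for Irf9, Irf7, Oasl1, Ifi44, Xaf1 or Ifit2. A match is a description of the letters and not of binding. The promoters of 4 genes called higher, all chosen among those with a match, are shown, 5′ to 3′, with each match in capitals. They let the element be seen in different places and on either strand.
Ifit3: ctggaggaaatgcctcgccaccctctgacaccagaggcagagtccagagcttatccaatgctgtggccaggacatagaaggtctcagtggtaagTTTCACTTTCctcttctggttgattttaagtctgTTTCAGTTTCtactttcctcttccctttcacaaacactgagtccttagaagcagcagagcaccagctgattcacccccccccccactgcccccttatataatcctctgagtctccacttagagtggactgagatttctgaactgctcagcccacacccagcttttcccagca
Isg15: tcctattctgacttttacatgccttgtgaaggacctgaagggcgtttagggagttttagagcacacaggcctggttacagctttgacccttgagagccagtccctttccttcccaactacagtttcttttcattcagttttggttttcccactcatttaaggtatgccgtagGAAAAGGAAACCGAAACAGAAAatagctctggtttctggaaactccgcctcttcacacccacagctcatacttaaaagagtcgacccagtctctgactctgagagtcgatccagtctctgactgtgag
Rsad2: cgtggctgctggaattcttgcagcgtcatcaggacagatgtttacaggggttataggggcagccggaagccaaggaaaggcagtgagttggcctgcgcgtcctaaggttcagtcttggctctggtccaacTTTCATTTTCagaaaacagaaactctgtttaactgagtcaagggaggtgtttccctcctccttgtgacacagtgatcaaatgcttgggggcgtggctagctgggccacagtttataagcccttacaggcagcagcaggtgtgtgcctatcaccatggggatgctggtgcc
Igtp: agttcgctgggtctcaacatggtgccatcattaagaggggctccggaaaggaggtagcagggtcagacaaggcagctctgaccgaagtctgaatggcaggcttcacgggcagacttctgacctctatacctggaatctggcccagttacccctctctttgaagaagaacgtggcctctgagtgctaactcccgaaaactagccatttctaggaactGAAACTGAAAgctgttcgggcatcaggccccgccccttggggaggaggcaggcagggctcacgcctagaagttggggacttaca
The Ifit3 promoter lies at chr19:34583279-34583578 on the plus strand and Igtp at chr11:58199306-58199605 on the plus strand. Isg15 lies at chr4:156200769-156201068 and Rsad2 at chr12:26456403-26456702, both on the minus strand. Isg15 holds 3 matches that overlap in 1 run and Ifit3 holds 2 apart, while Rsad2 and Igtp hold 1 each.

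The factors of the pathway were among the genes that rose. Irf9, the DNA-binding part of that complex, had counts of 957, 953 and 1186 in WT and 2254, 3307 and 2661 in KO. Every KO mouse was above every WT mouse, and the difference was 1.40 ± 0.17 (adjusted p = 0.0124, limma). Stat2 did not pass the test (0.53 ± 0.20, adjusted p = 0.205), and KO replicate 1 at 2174 was below WT replicate 2 at 2223. Irf7, which amplifies interferon production, was at 648, 669.5 and 1296 in WT and at 2811, 4892 and 1964 in KO (1.86 ± 0.36). Irf1 was similar in both groups, at 0.19 ± 0.16.

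Sensors of viral RNA rose by about the same amount. Ddx58, which encodes RIG-I, went from 942 ± 86.8 (SD, n = 3) to 2249.7 ± 426 (1.24 ± 0.16, adjusted p = 0.0153), and Ifih1, which encodes MDA5, from 1200.5 ± 129 to 2447 ± 267 (1.03 ± 0.13, adjusted p = 0.0159). Effectors differed by more. Usp18, which removes ISG15 from proteins and dampens interferon receptor signalling, was at 246, 241 and 259 in WT and at 955, 3117 and 1196 in KO. The WT mice were tightly grouped, while KO replicate 2 was far above its mates (2.62 ± 0.38, adjusted p = 0.0214). Rsad2, the antiviral radical enzyme viperin, was at 82.2, 141 and 214 in WT and at 688, 1547 and 429 in KO (a 5.66-fold difference of the fitted values, adjusted p = 0.0429), with KO replicate 2 again the highest. Isg15 (1.99 ± 0.35), Ifit3 (2.25 ± 0.31) and Oasl1 (2.40 ± 0.31) showed the same separation, and so did Igtp, an immunity-related GTPase, at 1.80 ± 0.26.

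**Figure D2:**
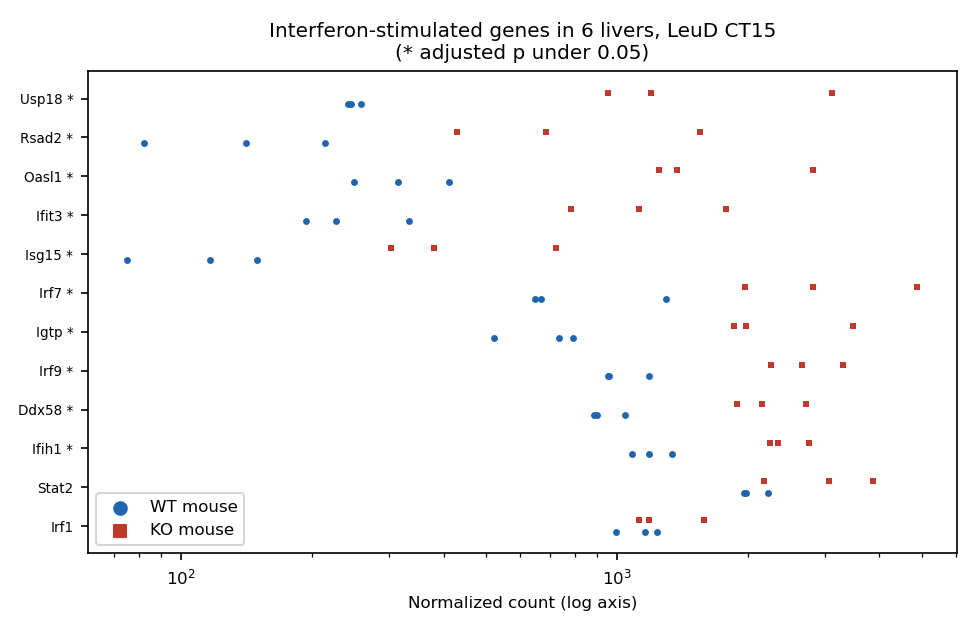
Normalized counts (log axis) of 12 interferon-stimulated genes described in the text in each of the 3 WT (blue circles) and 3 KO (red squares) livers at LeuD CT15, ordered by the size of the difference; stars mark the 10 called. In those 10 the 3 red squares lie to the right of all 3 blue circles, while Stat2 and Irf1 overlap.

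Interferon-linked genes outside the list also stood among the called genes. Slfn9, a Schlafen family gene, was at 95.0, 62.3 and 81.8 in WT and 366, 641 and 505 in KO (2.63 ± 0.25, adjusted p = 0.00438), and it was called whichever of the 6 mice was left out. Cmpk2, a mitochondrial nucleotide kinase gene that neighbours Rsad2, rose by 2.45 ± 0.34, and Samd9l, an antiviral factor gene, by 1.04 ± 0.16. Eif2ak2, which encodes PKR and is itself induced by interferon, rose from 552 ± 43.2 to 1270.2 ± 357 (1.17 ± 0.19, adjusted p = 0.0278). It was the only one called of 17 measured genes of the eIF2 kinases, their phosphatases and eIF2B; Eif2ak1 and Eif2ak3 did not pass the test. Without single mice the list count was 0 (WT replicate 2), 2 (WT replicate 1), 5 (WT replicate 3), 9 (KO replicate 3) or 10 (KO replicate 1), and it was 0 without the 2 acinar-rich libraries. Scaling to total reads left 9 called, all higher.

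The other 3 settings gave smaller or opposite median differences. Over the same 35 genes the median difference was -0.66 on Control at CT15, where 0 of 35 were positive and 0 were called, 0.13 on Control at CT03, with 19 positive, and 0.49 on LeuD at CT03, with 31 positive. In a fit of each of these 3 settings alone 0 list genes were called either way, among few calls over all genes: 0.021% higher and 0.0349% lower on Control at CT15, 0.014% higher on Control at CT03, and 0.0349% higher and 0.00699% lower on LeuD at CT03. On a scale set over all 24 libraries, Irf9 at CT15 was 1286 ± 222 in WT and 988 ± 224 in KO mice on Control, and 1050.4 ± 135 and 2813 ± 537 on LeuD. The test of the difference between the 2 diets (12 libraries, limma) called 15 genes, 0.104% of those tested, and 4 of them were of this list. Of the list, Irf9 differed between diets by 1.80 ± 0.28 and Usp18 by 3.24 ± 0.51 (adjusted p = 0.0496 for both). Outside the list, this test also called Cmpk2 (3.05 ± 0.45), Samd9l (1.93 ± 0.29) and Slfn9 (3.28 ± 0.44, adjusted p = 0.0456). Without any 1 WT mouse of either diet, KO LeuD replicate 3 or KO Control replicate 3, 0 genes were called in this test, without KO Control replicate 1 or 2 the count was 2 or 3, and edgeR called 1. The unadjusted p was below the threshold for 1716 genes.

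No immune cell marker passed the test. Of 17 measured lymphocyte markers 0 had a positive difference and 0 were called, with a median of -0.997 and a summed level of 14.4 to 29.1 RPM in KO against 29.2 to 113.6 RPM in WT. Of 15 Kupffer cell markers 3 were positive and 0 called, with 598.9 to 1171 RPM in KO and 839 to 1263 RPM in WT. Of 4 measured neutrophil markers 3 were positive and 0 called, with a median of 0.58 and a summed level of 3.15 to 4.55 RPM in KO and 2.03 to 3.92 RPM in WT. The part of these cells in the interferon result was not tested.

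Genes of the major histocompatibility complex (MHC) changed in both directions, and H2-Eb1 had the largest negative difference of all called genes. The classical class I genes present peptides from inside the cell, class II genes those taken up from outside, and the H2-Q, H2-T and H2-M genes are related class I genes whose number and sequence vary between mouse strains. Of 35 measured genes of the list 8 were called higher and 8 lower, or 22.9% each way, against 1.17% and 0.656% of all genes. The list median was -0.10. The KO mice lay above the WT mice in 11 list genes and below them in 13, against 12.1% and 12.2% of all genes. Many of them are near-identical copies, and no source used here says how reads that fit several copies were counted, so each value is uncertain as a measure of that 1 gene. Without KO replicate 3 the list held 3 higher and 4 lower calls, without WT replicate 2 it held 4 and 4, and without the acinar-rich libraries 2 and 4. Of H2 genes, the rule for naming covers only some, and the others were named after their values were seen.

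H2-Eb1, a class II beta chain gene, was at 1193, 1336 and 1568 in WT and at 58.3, 67.6 and 32.4 in KO. The groups were far apart, with a difference of -4.72 ± 0.27 (adjusted p = 0.000148, limma). H2-T23, the nonclassical class I gene for Qa-1, was at 9522, 9613 and 10900.0 in WT and 1526, 1309.9 and 1471 in KO (-2.80 ± 0.12). Its neighbour H2-T22 fell by 3.06 on the log2 scale, from 3769 ± 476 to 452 ± 73.7. H2-T10 moved the other way. It was at 93.1, 77.6 and 83.5 in WT and at 1179.7, 1335 and 975 in KO (3.76 ± 0.17, adjusted p = 3.21e-05). H2-K2 rose from 225 ± 36.2 to 2056 ± 696 (3.15 ± 0.23), and H2-Q2 from 14.8 ± 5.63 to 128 ± 13.8.

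The classical genes changed less. H2-K1 fell from 44457 ± 2762 to 24277 ± 729 (-0.87 ± 0.13), and H2-D1 rose from 25317 ± 2074 to 44527 ± 2571 (0.82 ± 0.14). H2-Q1, H2-Q4 and H2-Bl were higher, and H2-Q5, H2-Q6, H2-Q7 and H2-Ke6 lower. Genes outside the copies that serve the same pathway mostly did not pass the test. B2m, the shared light chain of class I molecules, was at 45493 ± 2217 in WT and 47360.0 ± 3038 in KO, and Psmb8, an immunoproteasome subunit gene, differed by 0.27 ± 0.18. Tap2, a peptide transporter subunit gene, rose by 0.66 ± 0.13, and Cd74, the class II invariant chain gene, was not called (-0.66 ± 0.19, adjusted p = 0.114).

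In the order of genes along the chromosome, the called genes lay in clusters. From the first to the last H2 gene, 111 measured genes were counted and 20 were called (11 higher, 9 lower), or 18.0%. Without the H2 genes the stretch held 86 measured genes, of which 4 were called (Tap2, Tubb5, Gm10499 and Znrd1as), or 4.65%. H2-T-ps, a pseudogene beside H2-T10, went from 17.9 ± 4.42 to 935 ± 60.1.

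**Figure D3:**
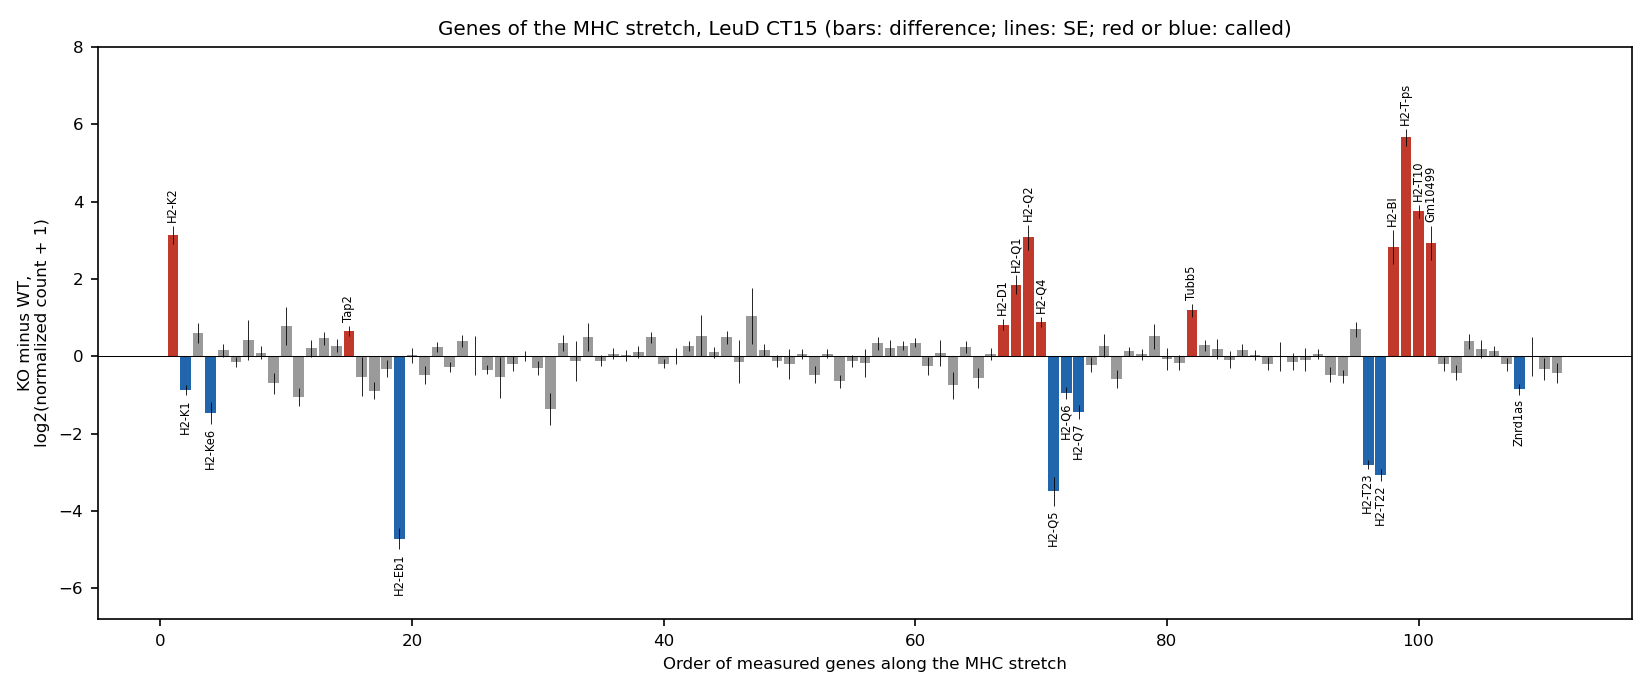
KO minus WT differences (log2 scale, bars, with SE as lines) of 111 measured genes in chromosome order from the first to the last H2 gene, with called genes in red (higher) or blue (lower) and named. Called genes of opposite sign sit side by side, as with H2-T22 and H2-Bl, while most genes between the clusters lie near 0.

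For 3 of these genes the genotype difference itself differed between times of death. On the 24-library scale H2-Eb1 averaged 54.2 ± 18.7 in KO on LeuD and 42.2 ± 9.24 in KO on Control at CT15, but 669 ± 196 and 555 ± 185 in KO on the same diets at CT03. WT means stayed between 1033 and 1390.0 in all 4 settings. H2-T23 had the same form, with KO means of 1474 ± 119 and 865 ± 228 at CT15 and of 7880.4 ± 2039.9 and 7316 ± 2607 at CT03. The test of the difference between times on LeuD called 3 genes (0.0207% of those tested), all lower at CT15: H2-Eb1 (-3.78 ± 0.39, adjusted p = 0.00358), H2-T22 (-2.49 ± 0.26, adjusted p = 0.00358) and H2-T23 (-2.36 ± 0.26, adjusted p = 0.0047). The diet test called none of the 3; for H2-Eb1 it gave -0.14 ± 0.38 (adjusted p = 0.911). The CT03 and CT15 mice are different animals, and time of day and the animals used at each time cannot be told apart. The 3 genes were called with each of the 12 mice left out, and 0 were called without the acinar-rich libraries, among them KO LeuD CT03 replicate 1. Leaving out KO LeuD CT15 replicate 2 raised the count to 6 and leaving out KO LeuD CT03 replicate 3 raised it to 37. In the latter mouse Asns was at 409 against 3232 and 2869.9 in its mates, and Mcm6 at 123 against 636 and 717.

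H2-T10 was high in KO mice at both times, with 1 exception. Its KO means were 1194 ± 185 (LeuD CT15), 1114 ± 238 (Control CT15) and 702 ± 68.5 (LeuD CT03), and KO Control CT03 held 734, 687 and 1 mouse, replicate 2, at 73.5, which lay in the WT range. That mouse also had H2-T22 at 3706 and H2-T23 at 10324, above its mates and within the WT range, while its Eif3j2 count was 534, in the KO range. All 12 WT mice were between 53.1 and 118.

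**Figure D4:**
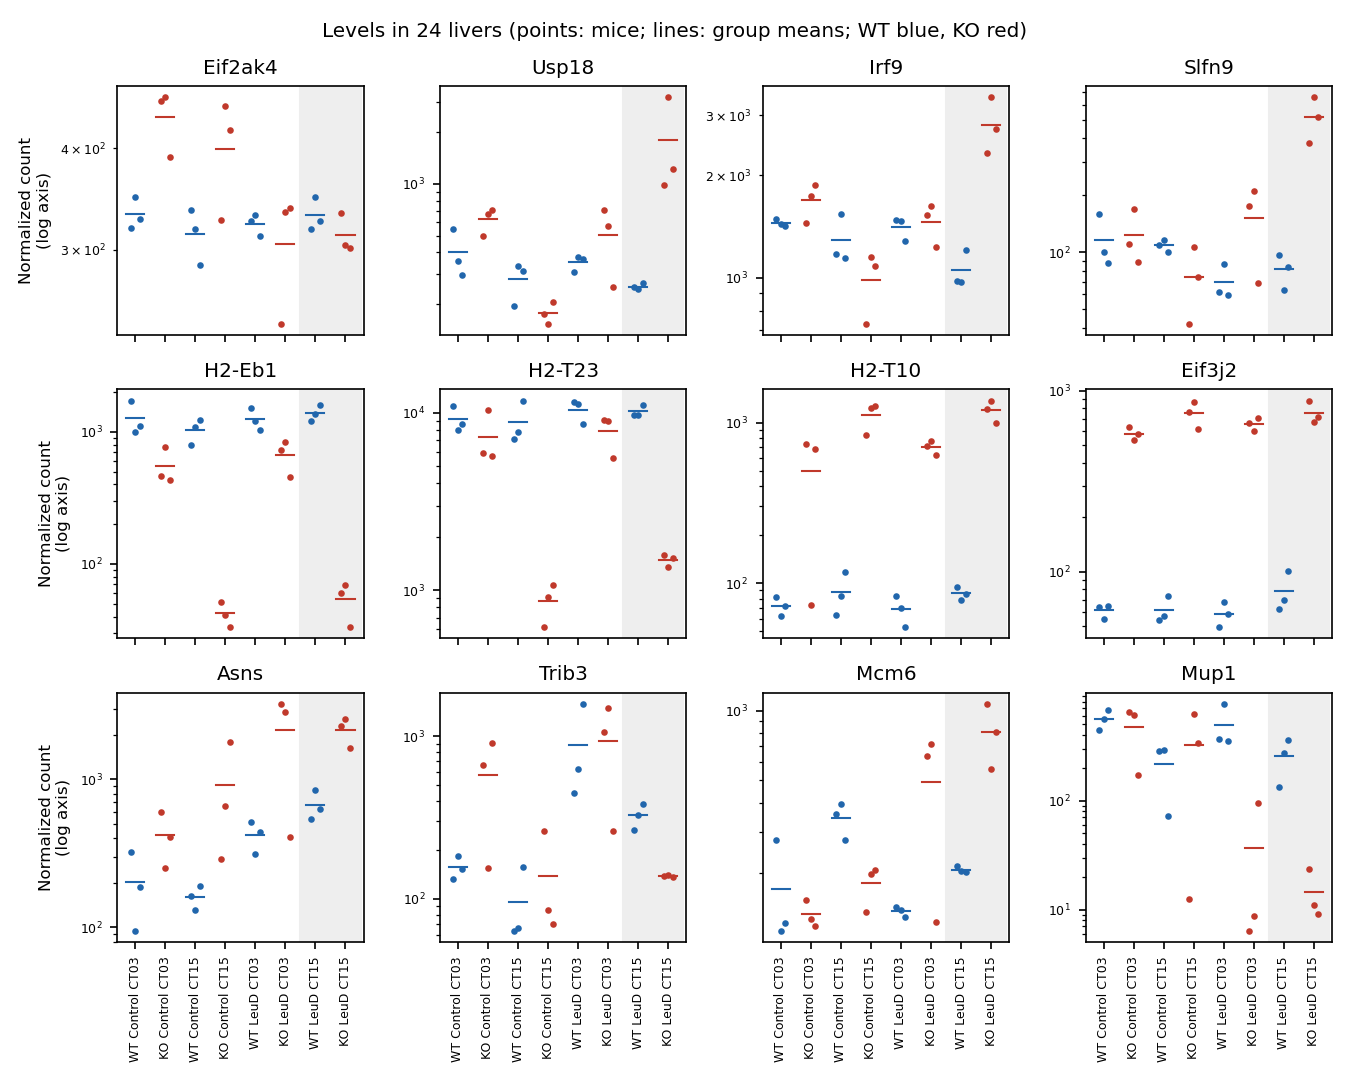
Normalized counts (log axis, scale set over 24 libraries) of 12 genes in all 8 groups of 3 livers; points are mice, lines are group means, WT is blue and KO red, and the shaded pair is LeuD CT15. H2-Eb1 and H2-T23 are low in the KO groups at CT15 on both diets, Eif3j2 is high in every KO mouse, and Usp18, Irf9 and Slfn9 are highest in KO at LeuD CT15.

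Eif3j2 separated the genotypes without overlap in all 8 groups. Eif3j1 and Eif3j2 are near-identical copies of the gene for a subunit of translation initiation factor 3. Eif3j2 was at 61.4, 68.4 and 99.7 in WT and at 857, 656 and 702 in KO (3.28 ± 0.22, adjusted p = 0.000423, limma). Eif3j1 was at 2399, 2557 and 2844 in WT and at 1870.2, 1597 and 1999.7 in KO, lower in each KO mouse but not called (-0.52 ± 0.13, adjusted p = 0.090). In the other 3 settings the Eif3j2 difference was 3.21 ± 0.15, 3.48 ± 0.17 and 3.59 ± 0.20. Reads of the pair can be assigned to either copy, so the 2 values cannot be read apart. Of 64 measured initiation and elongation factor genes 2 were called higher (3.12% against 1.17% of all genes) and 0 lower, with a median of 0.02. Besides Eif3j2, the other was PKR's gene Eif2ak2.

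Eif3j1 is the 65th measured gene after Eif2ak4 in the RefSeq gene order. Among the 50 measured genes nearest to Eif2ak4 on each side 6 of 100 were called (6.0%), and among the 200 nearest on each side 9 of 400 (2.25%). On the rest of the chromosome it was 7 of 654 (1.07%), and on the other chromosomes 241 of 12650 (1.91%). The 9 genes were found by their values within that window. Disp2, a gene linked to hedgehog ligand release and the 7th measured gene after Eif2ak4, was at 215, 139.8 and 187 in WT and at 1.14, 18.9 and 8.94 in KO (-4.57 ± 0.71, adjusted p = 0.0248). Chp1, a calcium-binding partner of sodium-proton exchangers, went from 19129 ± 742 to 7452 ± 455 (-1.36 ± 0.12), and Cd59a, a complement inhibitor gene, from 1971 ± 141 to 725 ± 118. Both were called whichever of the 6 mice was left out. Bmf, a pro-apoptotic BCL2 family gene, fell by 1.86 on the log2 scale, Spg11 by 1.12 and Gpat2 by 1.60. Tcp11l1 and Arhgap11a were the only called genes of the 9 that were higher in KO.

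**Figure D5:**
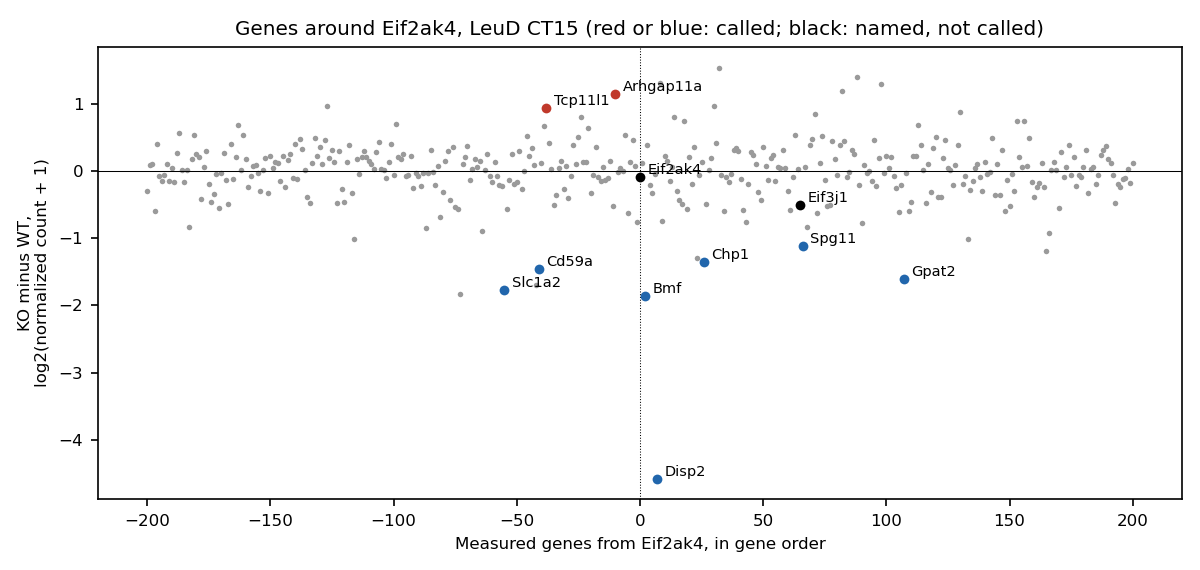
KO minus WT differences (log2 scale) of the 200 measured genes on each side of Eif2ak4, by their place in gene order; red and blue points are called genes and black points are Eif2ak4 and Eif3j1, which were not called. Of the 9 called genes, 7 lie below 0.

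The targets of the integrated stress response did not move as 1 group. Of 40 measured genes of the list 1 was called higher and 1 lower, or 2.5% each way, against 1.17% and 0.656% of all genes. The list median was -0.12, with 14 of 40 positive. Asns, which makes asparagine, rose. It was at 535, 837 and 618 in WT and at 2236, 2496 and 1579 in KO, with no overlap (1.66 ± 0.22, adjusted p = 0.0159, limma). Trib3, a pseudokinase that restrains ATF4, fell. Its counts were 259, 325 and 378 in WT and 135, 136 and 132 in KO, so the 3 KO mice were almost equal (-1.23 ± 0.18, adjusted p = 0.0218). Each call was lost when a mouse was left out: Asns without WT replicate 1 or 3, with an adjusted p of at most 0.0536, and Trib3 without KO replicate 3 or WT replicate 2 or 3, with one of at most 0.101. In 1 fit over all 24 libraries the adjusted p was 0.155 for Asns and 0.317 for Trib3.

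Both promoters hold the letters TGATGNAA, the core of the element that ATF4 binds with C/EBP partners, on 1 strand or the other, and they are shown because the 2 genes moved in opposite directions. The capitals mark the match.
Asns: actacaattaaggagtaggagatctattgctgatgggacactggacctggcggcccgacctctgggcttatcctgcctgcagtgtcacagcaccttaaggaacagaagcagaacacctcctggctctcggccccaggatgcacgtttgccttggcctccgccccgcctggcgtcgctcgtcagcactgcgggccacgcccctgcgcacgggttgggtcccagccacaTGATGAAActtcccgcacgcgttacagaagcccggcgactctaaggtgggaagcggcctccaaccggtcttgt
Trib3: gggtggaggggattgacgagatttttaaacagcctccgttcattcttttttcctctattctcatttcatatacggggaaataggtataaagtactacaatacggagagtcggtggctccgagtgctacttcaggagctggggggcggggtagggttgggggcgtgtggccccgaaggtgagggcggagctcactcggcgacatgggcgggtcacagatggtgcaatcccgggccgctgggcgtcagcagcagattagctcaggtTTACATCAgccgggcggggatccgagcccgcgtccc
The Asns promoter is at chr6:7693160-7693459 and that of Trib3 at chr2:152344011-152344310, both on the minus strand of GRCm38.p6. The match begins 23 bases before the start of Asns and 14 bases after that of Trib3. It occurs in 12 of the 36 list genes with a promoter in the table (33.3%) and in 2.84% of all tested genes with one.

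Transcription factors of the response were near equal in the 2 genotypes. Atf4 was at 5235, 4101 and 2767 in WT and 6118, 2675 and 3109.6 in KO, overlapping widely (-0.07 ± 0.33). Atf5 differed by -0.03 ± 0.25, and Ddit3, which encodes CHOP, by 0.19 ± 0.31. Secreted stress hormones scattered between mice. Fgf21 was at 509, 556 and 280.4 in WT and at 423, 98.2 and 67.1 in KO (-1.60 ± 0.61, adjusted p = 0.211), and Gdf15 at 449.5, 572 and 191 against 1378, 303 and 182. KO replicate 1 was the highest KO mouse for both. Among serine and one-carbon genes, Phgdh was at 51.0 ± 22.5 in WT and 115 ± 60.3 in KO, Psat1 at 231 ± 49.5 and 196 ± 103, and Mthfd2 at 166 ± 54.5 and 104 ± 42.2, and none passed the test. Chac1, a glutathione-degrading enzyme gene, differed by -1.29 ± 0.49 (adjusted p = 0.214) and Sesn2, a leucine sensor of mTORC1 signalling, by 0.07 ± 0.19. Chac1 is also the 23rd measured gene after Eif2ak4.

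Asns had a positive genotype difference in all 4 settings of the study (1.13 ± 0.47, 2.13 ± 0.59, 1.91 ± 0.73 and 1.66 ± 0.21), and only the last, LeuD CT15, passed the test in a fit per setting. The difference between diets at CT15 was -0.46 ± 0.69 for Asns (adjusted p = 0.824) and -1.64 ± 0.63 for Trib3 (adjusted p = 0.342). At CT03 on LeuD Trib3 was far more variable, at 446, 630.4 and 1577 in WT and at 1056, 1485 and 261 in KO. Of 20 cytosolic aminoacyl-tRNA synthetase genes 0 were called, with a median of -0.08, and of 84 ribosomal protein genes 0 were called, with a median of 0.02. Among 27 mTORC1 regulators and leucine sensors, Rptor, the raptor subunit gene, was the 1 called, at 1194 ± 58.5 in WT and 1978 ± 322 in KO (0.72 ± 0.14). That call was lost without any 1 WT mouse, without KO replicate 2 or 3, and under scaling to total reads.

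Genes that break down leucine, isoleucine and valine were lower in KO in part. The pathway transaminates these amino acids, decarboxylates their keto acids and degrades the products in mitochondria. Of 25 measured genes 3 were called lower (12% against 0.656% of all genes) and 0 higher. In 24 the difference was negative, with a list median of -0.36. In 14 the groups did not overlap, against 12.2% of all genes tested with KO below WT. Aldh6a1, the valine pathway dehydrogenase, was at 19404, 18704 and 19559 in WT and at 9846, 12184 and 10903 in KO (-0.81 ± 0.13, adjusted p = 0.026, limma). Echs1, the enoyl-CoA hydratase, fell from 10609 ± 698 to 6336 ± 676, and Acadsb, which oxidises branched short acyl chains, from 4279.9 ± 188 to 2646 ± 348. Ivd, the leucine pathway dehydrogenase (-0.75 ± 0.17, adjusted p = 0.0641), Dbt, a subunit of the keto acid dehydrogenase (-0.66 ± 0.16), and Bcat2, the mitochondrial transaminase (-0.51 ± 0.14), did not overlap between groups but were not called. Ivd is also the 9th measured gene after Eif2ak4. Scaling to total reads called 7 of the 25, and 0 were called without KO replicate 3, without any 1 WT mouse or without the acinar-rich libraries, against 1 without KO replicate 1. On LeuD at CT03 the list had a median of -0.34, with 2 of the 25 positive. On Control its median was 0.14 at CT03 and -0.02 at CT15. In each of these settings 0 genes of the list were called.

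Other amino acid genes moved singly. Of 28 amino acid transporters Slc1a2, a glutamate transporter gene that also lies among the 200 nearest genes to Eif2ak4, was the 1 called. It was at 9953, 7387 and 7381 in WT and at 2030.2, 3439 and 1936 in KO (-1.78 ± 0.23, adjusted p = 0.0159). Of 45 genes of the urea cycle and other amino acid breakdown, Sdsl, a serine dehydratase-like gene, rose from 504 ± 64.4 to 1142 ± 236 and Otc, a urea cycle enzyme gene, fell from 11431 ± 344 to 7507 ± 505 (-0.61 ± 0.11). Leaving out any 1 of the 6 mice ended the Otc call.

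A few genes of DNA replication rose in KO livers. Adult liver holds few dividing cells, and some genes of this list, such as Top2a, had low counts here. Of 35 measured genes 30 had a positive difference, with a median of 0.99. Of the 35, 5 were called higher (14.3% against 1.17% of all genes) and 0 lower. In 24 the KO mice lay above the WT mice (12.1% of all genes did) and in 2, Mcm10 and Tk1, below them (12.2% did). Mcm6, a subunit of the replicative helicase, was at 203 ± 6.15 (SD, n = 3) in WT, all between 199 and 209.9, and at 1035, 546 and 786 in KO. The WT mice were almost equal and each KO mouse was above them (1.91 ± 0.22, adjusted p = 0.0118, limma). Mcm2 was at 124, 135 and 146 against 633, 245 and 402 (1.55 ± 0.31). Ccne2, a cyclin of the entry into S phase, rose by 1.21 ± 0.20, Gins2 by 1.58 ± 0.31 and Top2a by 1.32 ± 0.26, from a count of 34.2 ± 1.33 to 88.7 ± 20.7. Ccnd1, cyclin D1, was at 1035 ± 103 and 2812 ± 1530.4 and was not called, and neither was the cell cycle inhibitor gene Cdkn1a (1.64 ± 0.37, adjusted p = 0.0668).

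Mcm6 had the lowest p in the test of diet at CT15. On the 24-library scale it was at 358, 394 and 278 in WT and 136, 198 and 206 in KO on Control, and at 214, 203 and 202 in WT and 1066, 559 and 806 in KO on LeuD (difference between diets 2.85 ± 0.33, adjusted p = 0.0334). At CT15 all KO mice lay below the WT mice on Control and above them on LeuD. On LeuD at CT03 Mcm6 differed by 1.485 ± 0.614 and was not called. Over 34 genes of the list the median there was 0.69, with 28 positive and 0 called, against 0.98 and 29 positive at CT15. On Control it was -0.32 at CT03 and -0.39 at CT15. The list count at LeuD CT15 was 0 without WT replicate 2 or without the acinar-rich libraries, 1 without KO replicate 1 or 3 or WT replicate 1 or 3, and 9 without KO replicate 2.

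Major urinary protein genes were lower in KO. They encode carriers of pheromones that liver secretes, under control of growth hormone and testosterone. All 13 measured genes had a negative difference, with a median of -3.23, 4 were called lower (0.656% of all genes were), and in 9 the KO mice lay below the WT mice (12.2% of all genes did). The copies are so alike that reads cannot be assigned to 1 with certainty. Mup1 was at 131, 267 and 352 in WT and at 22.9, 10.8 and 8.94 in KO (-4.04 ± 0.45, adjusted p = 0.00981, limma). Mup11 was at 290.1, 1996 and 3848 in WT and at 101, 37.8 and 35.8 in KO. WT replicate 1 was far below its mates and still above every KO mouse. Mup12 and Mup19 fell by 3.69 and 4.55 on the log2 scale. The most abundant copy, Mup3, was alike in both groups, at 114940.0 ± 45545 and 102230.0 ± 32008, and Mup20 ranged from 9031 to 51131 within WT. Scaling to total reads called 6 of the 13. Without WT replicate 2, 0 were called, and without KO replicate 2 or 3 or WT replicate 3, 1 was.

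On Control the genotype difference of this list had a median of -0.77 at CT03 and -0.67 at CT15, and on LeuD at CT03 it was -4.15, with 0 genes called in each of these 3 settings. Of 21 male-biased liver genes 16 had a negative difference, with a median of -0.53. Of the 21, 2 were called lower, both Mup genes, or 9.52% against 0.656% of all genes. Of 14 female-biased genes 11 had a positive difference, with a median of 0.89. Of the 14, 1 was called higher, or 7.14% against 1.17% of all genes. It was Abcd2, a peroxisomal fatty acid transporter gene, which rose from 746 ± 172 to 1817 ± 99.6 (1.31 ± 0.18). On Control at CT03, Control at CT15 and LeuD at CT03 the male-biased median was -0.67, -0.36 and -1.08. The female-biased median there was 0.80, 0.62 and 0.71.

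Among metabolic lists, single genes were called. Insig2, which holds the sterol sensor SCAP in the endoplasmic reticulum, was at 2509.9, 3453 and 3039 in WT and 9992, 6339.7 and 13642 in KO (1.68 ± 0.26, adjusted p = 0.0247, limma), the 1 call among 29 cholesterol genes. Apoa4, an apolipoprotein made in liver when fat accumulates, was at 4211, 4555 and 4896 in WT and 15426, 11936 and 38632 in KO (2.08 ± 0.37), with KO replicate 3 the highest. Fasn, fatty acid synthase, was at 37285, 35243 and 18114 in WT and at 117430.0, 27693 and 113880.0 in KO. KO replicate 2 fell within the WT range, and the gene was not called (1.32 ± 0.54, adjusted p = 0.243). Igfbp1, an insulin-repressed gene, had the same form, with KO replicate 2 at 2068 among WT values of 1476 to 3035 and its mates at 7986 and 9599. Of 29 fatty acid synthesis genes 0 were called, with 8 higher and 1 lower at an unadjusted p under 0.05, and of 35 fatty acid oxidation genes 0, with 3 higher and 2 lower at that level. Of all genes, 9.81% were higher and 8.58% lower at it.

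Genes for bile acids and foreign compounds were called in small numbers. Slc10a2, the apical bile acid transporter gene, rose from 770.2 ± 233 to 2148 ± 325 (1.51 ± 0.21) and Baat, which joins bile acids to amino acids, fell from 6782 ± 776 to 4160.4 ± 404. Cyp7a1, which opens the classic route from cholesterol to bile acids, was at 10040.0, 15100.0 and 9897 in WT and at 3426, 6618 and 1805 in KO, without overlap and not called (-1.73 ± 0.41, adjusted p = 0.0761). Of 45 drug-metabolizing cytochrome P450 genes 3 were called higher and 0 lower, against 1.17% and 0.656% of all genes. The list as a whole had no clear direction, with a median of 0.01, 24 genes positive and 21 negative. At an unadjusted p under 0.05 (limma), 8 were higher and 9 lower. Cyp3a11, the main PXR target, was at 9057, 25814 and 17752 in WT and 75324, 44916 and 79448 in KO (2.01 ± 0.37), Cyp2c55 rose by 1.83 ± 0.30 and Cyp2c67 by 0.85 ± 0.17. Of 27 NRF2 target and glutathione genes Srxn1 (1.16 ± 0.21) and Gstm4 (0.98 ± 0.17) were called higher, or 7.41% against 1.17% of all genes. Id3, a BMP target, rose from 3164 ± 195 to 5979.5 ± 753.

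Of 24 clock genes limma called 0, with a median of -0.10, and 5 had an unadjusted p under 0.05, all with lower values in KO, where 8.58% of all genes had one. The light-independent oscillator of liver is driven by BMAL1, encoded by Arntl, and by CLOCK, and the Period and Rev-erb genes repress it. Dbp, a direct output of the clock, was at 1709.9, 953 and 2026 in WT and at 888, 797 and 359 in KO, lower in each KO mouse (-1.23 ± 0.38, adjusted p = 0.136, limma). Arntl was at 215, 496 and 151 against 305, 396 and 854 (0.89 ± 0.48), and Nr1d1, Rev-erb alpha, differed by -0.96 ± 0.45. Per1 and Per2 were closer, at -0.51 ± 0.25 and -0.27 ± 0.19. In 5 of the 24 the KO mice lay below the WT mice, against 12.2% of all genes, and in 0 above. Lists of endoplasmic reticulum chaperones, heat shock chaperones, autophagy, proteasome subunits, respiratory chain subunits and acute phase genes held 0 called genes each.

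Several of the largest calls belonged to no list. Extl1, a heparan sulfate glycosyltransferase gene, was at 743, 1149 and 672 in WT and at 101, 123 and 107 in KO (-2.91 ± 0.22, adjusted p = 0.000784, limma), and it was called in each fit without 1 mouse. Spon2, a secreted matrix protein gene, rose from 48.5 ± 14.1 to 354 ± 92.3 and Guca1a, a guanylate cyclase activator gene best known from retina, from 37.3 ± 11.2 to 229 ± 60.1; both were called in each of these fits. Tff3, a trefoil peptide gene, was at 101, 59.2 and 138 in WT and 631, 3329.7 and 648 in KO (3.55 ± 0.61), with KO replicate 2 far above its mates, as in the interferon genes. Ugt3a2 and Nox4 fell by 1.10 and 1.23 on the log2 scale. Both also differed between diets at CT15 (-1.22 ± 0.16 and -1.67 ± 0.26). For Ugt3a2 the KO LeuD mean of 6076 ± 764 stood against 12530.0 to 13645 in the other groups at that time. On LeuD at CT03 the genotype difference had the same sign, at -1.455 ± 0.378 for Ugt3a2 and -1.114 ± 0.521 for Nox4. It also kept its sign there for Extl1 (-1.874 ± 0.74), Spon2 (1.422 ± 0.413), Guca1a (1.767 ± 0.241) and Tff3 (3.983 ± 0.998). None of these genes was called on LeuD at CT03. Sox9, a factor of bile duct cells, rose from 216 ± 47.3 to 559 ± 162, the 1 call among 7 measured cholangiocyte markers, whose summed level was 34.0 to 48.1 RPM in KO and 31.0 to 46.4 RPM in WT.

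The make-up of the libraries also differed. Mitochondrially encoded genes took 3.54%, 2.95% and 2.97% of reads in KO and 4.58%, 4.70% and 4.84% in WT. The difference of the means was -1.55 percentage points, with no overlap, and the exact 2-sided permutation test gave p = 0.10, the smallest that 3 against 3 allows. Albumin reads took 13.4% to 15.3% in KO and 8.80% to 10.9% in WT. Of 29 mitochondrially encoded genes 0 were called after scaling by the median ratio, with a median of -0.14. The part of these shares in the differences above was not tested.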

How the data were processed

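Polyadenylated liver RNA of 24 mice was sequenced. The authors deposited 10 tables of paired groups; per the file headers each has fold changes and p-values, not used here, and a deposited signal for each of 6 libraries, which is the gene's reads over a size factor of that table. The submitters' processing notes name build GRCm39 and, without roles or settings, DESeq, DESeq2, featureCounts, STAR 2.5.2b, Subread 1.5.2 and Trimmomatic 0.36. The kit marks no strand by its usual protocol, so antisense and overlapping genes cannot be told apart.

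No table holds this pair of groups, so KO libraries came from one table and WT libraries from another. Low values were whole multiples of 1 read, and dividing by that step gave reads whole to within 0.01 for 100% of values. Libraries held by more than 1 table gave 44 checks, in which 0 reads differed. In 2 tables a library's size factor was too near 1, and its reads came from its other tables. Reads of the 6 libraries (12 for tests of diet or time) were scaled by the median ratio in R 4.3.3 and tested as log2(normalized count + 1) with limma 3.58.1 (intensity trend, 2-sided), which understates changes of genes with few reads. Genes listed in only 1 of the tables (422 KO, 333 WT) were left out. The tests were checked on simulated counts.

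The comparison, its genes and the lists were chosen with earlier results of these data known. Named genes are Eif2ak4, the Eif3j pair, the 15 largest called differences each way among genes with a mean of at least 50, up to 3 called genes per list, a set of stress, clock and metabolic genes, and up to 10 genes per test of diet or time; others that complete a count were named after their values were seen. Alternatives were TMM or total-read scaling, pseudocounts of 0.5 and 5, filters at means of 10 and 50, edgeR 4.0.16 and DESeq2 1.42.0 on the recovered reads, a block by replicate number, each library left out, the acinar-rich libraries left out, and 1 fit over all 24 libraries. The RefSeq order of 13705 matched genes (build GRCm38.p6) replaced distances near Eif2ak4.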

Additional observations from a re-analysis of the deposited data

Results flagged for a closer look

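In 10 of the 15 genes called for it, the KO minus WT difference at CT15 is given here as it changed between the 2 diets (LeuD minus Control, log2 scale, limma over 12 libraries). It was positive for Mcm6 (2.85), Slfn9 (3.28), Cmpk2 (3.05), Usp18 (3.24), Irf9 (1.80), Samd9l (1.93), H2-Q1 (2.49) and the unnamed transcript 2900009J06Rik (3.62). For Ugt3a2 (-1.22) and Nox4 (-1.67) it was negative. The KO minus WT difference on LeuD also changed between times (CT15 minus CT03) for H2-Eb1 (-3.78), H2-T22 (-2.49) and H2-T23 (-2.36).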

How the results depend on the processing

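Of the called genes, 64 were chosen by the naming rule, and their direction held under every alternative run; of these 64, 59 were called by edgeR, 18 with the replicate block, 13 without the acinar-rich libraries and 12 in every fit without 1 mouse. Over all 264 called genes, 18 were called in every such fit. The count of 264 became 1031 with DESeq2, 563 in 1 fit over all 24 libraries, 24 without the acinar-rich libraries (2 against 2 mice) and 25 to 328 with 1 mouse left out. The 15 genes of the diet test became 3 with TMM scaling, 3 with a pseudocount of 5, 3 with genes taken from any table (an alternative added after the data were seen), 1 with total reads, 1 with edgeR, 292 with DESeq2, 77 over 24 libraries, 0 without the acinar-rich libraries and 0 to 19 with 1 mouse left out. The 3 genes of the time test became 92 with DESeq2, 9 over 24 libraries, 0 without the acinar-rich libraries and 3 to 37 with 1 mouse left out. The cause of these shifts was not tested, beside the smaller number of mice where some were left out.

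Replicate numbers gave no sign of pairing: same-numbered KO and WT mice deviated with correlations of -0.205, 0.0917 and -0.403. Mice of different numbers had values from -0.263 to 0.436, the highest between WT replicate 1 and KO replicate 3, the acinar-rich libraries. With 3 mice a group, these values cannot settle whether mice were paired. With the replicate block 32 genes were called in the main comparison, 0 in the diet test and 3 in the time test.

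Genes that were not called changed sign under some settings. Without 1 mouse, Atf4 ranged from -0.436 to 0.161, Atf5 from -0.249 to 0.158, Ddit3 from -0.0936 to 0.445, Gdf15 from -0.639 to 0.823, Psat1 from -0.703 to 0.167 and Sesn2 from -0.0616 to 0.217. Sesn2 was at -0.0907 with total reads, and Atf4 at 0.27 without the acinar-rich libraries. Distances in bases from Eif2ak4 were not run, because the reference at hand is another build.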

Other observations

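Proteasome subunit genes had a small difference of 1 sign in most members, with 0 of 38 called by limma, or 1 in the fit limited to the 14315 genes tested in all 4 settings. In 31 of the 38 the difference was positive, in 19 the KO mice lay above the WT mice (12.1% of all genes did), and 18 had higher values at an unadjusted p under 0.05 (9.81% of all genes did). The median was 0.27. Psmd1, a subunit of the regulatory cap, was at 2900.0, 2911 and 2946 in WT and 4134, 4414 and 3987 in KO (0.52 ± 0.10, adjusted p = 0.0501).

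Acute phase, complement and coagulation genes, which liver secretes into plasma, also held 0 calls among 35. Their median was 0.44, 27 were positive and 12 had higher values at an unadjusted p under 0.05 (9.81% of all genes did). Hpx, the heme carrier hemopexin, averaged 145560.0 ± 17571 in WT and 357000.0 ± 100180.0 in KO (1.26 ± 0.27, adjusted p = 0.0563). Lbp, which binds bacterial lipopolysaccharide, was at 2773, 2665 and 2796 in WT and at 3854, 6055 and 7189 in KO (1.01 ± 0.21, adjusted p = 0.0551). For both genes the groups did not overlap. In 11 of the 35 the KO mice lay above the WT mice, against 12.1% of all genes.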
